A study of Mus musculus with 3 samples.

Results

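The Myc, Max and Mxd network was examined in J1 mouse embryonic stem cells (mESCs) treated with PD0325901 (PD), a small molecule that inhibits MEK, the kinase that activates ERK. The 10 genes examined were Myc, Mycn, Max, Mxd1, Mxd3, Mxd4, Mxi1, Mnt, Mga and Mlx. They were found through the accession that each array probe carries, matched without its version to RefSeq. All 10 genes were present, with 12 probes and 13 spots per array, among 20660 named genes in all.

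The proteins of this network share a basic helix-loop-helix leucine zipper, through which they pair with each other and bind DNA at E-boxes. Myc and Mycn activate growth and biosynthesis genes as heterodimers with Max, whereas the Mxd proteins, Mxi1 and Mnt pair with Max and recruit histone deacetylases to repress. Mga pairs with Max inside a Polycomb complex, and Mlx is a partner of some Mxd proteins and of the glucose-sensing Mondo factors. In mESCs, Myc lies downstream of both LIF and ERK signaling, and Mga and Max are known to repress germline genes.

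The 3 samples were replicates of 1 group. J1 cells, a single line of strain 129S4/SvJae, were grown without feeders on gelatin in serum replacement medium with LIF (leukemia inhibitory factor) at 1000 U/mL, and received 1 µM PD for 24 h. According to the methods of the study, each replicate was an independent experiment. Control cells without PD were not analysed here, so no level could be compared with untreated cells and no effect of PD was tested. Total RNA of each sample was labelled with Cy3 and hybridised to its own Agilent array, and the arrays shared 1 slide. The measured quantity was the processed signal, a background-subtracted spot intensity. A level is its log2 value minus that of the 75th percentile of the array, which lay at signals of 551, 511 and 527 on replicates 1 to 3. A level of 0 is therefore the 75th percentile. Detection of a probe required, on each of the 3 arrays, that no fewer than 50% of the spots carried the scanner software's flag for a signal well above background. The lowest spots with this flag had signals of 10.1, 11.4 and 10.3. The signal of a probe depends on its own sequence, so the order of levels of different genes is an order of probes and not of amounts of RNA. In RNA from whole cultures, fewer cells expressing a gene and less RNA per cell cannot be told apart.

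The stem cell label was checked with 8 marker genes, all of which were detected, at levels from 0.39 (Nanog) to 6.28 (Esrrb). The largest SD among these 8 was 0.42, for Pou5f1, with levels of 4.35, 5.04 and 4.28 on replicates 1 to 3. Of 10 markers of other cell types 6 were detected. Among all named genes 72.8% were detected, so detection alone says little about cell type. The neural gene Sox1 had a level of 0.18, above the 75th percentile, and Pax6 had -1.79 by the brighter of its 2 probes. The other Pax6 probe was not detected on all arrays. The collagen genes Col1a2 and Col1a1 had levels of -0.31 and -1.23, the keratin gene Krt8 of -1.49 and the endoderm gene Gata4 of -2.39. Their part in the levels of the network was not tested. The remaining 4 were Postn and Cdx2 (detected on 0 arrays), Col3a1 (1 array) and T (2 arrays).

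The DNA element that this network binds was looked up in the promoters of its own genes. RefSeq windows of 300 bases (250 before and 50 after a transcript start, build GRCm38.p6) matched 9 of the 10 genes, all but Myc, with 11 windows. The E-box CACGTG, which reads the same on both strands, occurred once each in the windows of Max, Mxd4, Mnt and Mlx. It was absent from those of Mycn, Mxd1, Mxd3, Mga and from all 3 windows of Mxi1. Over all genes with a window, 8.09% (2187 of 27025) held it, and over all windows 7.15%. These letters are a description of the sequence and no evidence of binding. The stretches of 30 bases around the element are shown 5′ to 3′ on the strand of the gene, with the E-box in capitals, since it is the site that the proteins encoded by these genes recognise.

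Max: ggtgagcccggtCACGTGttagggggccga
Mxd4: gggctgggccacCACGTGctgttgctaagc
Mnt: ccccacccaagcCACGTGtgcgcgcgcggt
Mlx: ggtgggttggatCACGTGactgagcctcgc

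The stretch of Max is chr12:76962234-76962263 on the minus strand, and its E-box begins at position -3 from the transcript start. That of Mxd4 is chr5:34187912-34187941 on the minus strand, with the E-box from position -219. The stretch of Mnt is chr11:74830789-74830818 on the plus strand, with the E-box from position -123, and that of Mlx is chr11:101087238-101087267 on the plus strand, with the E-box from position -40.

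Both activators were detected on all arrays. Myc, the founding member, was measured by 1 probe with 2 spots per array, the only probe of the network with more than 1. Its spots gave signals of 659 and 716 on replicate 1, of 637 and 671 on replicate 2 and of 588 and 609 on replicate 3. The levels were thus 0.32, 0.35 and 0.18 (0.29 ± 0.09, SD, n = 3), just above the 75th percentile of each array. The paired spots differed by 0.12, 0.08 and 0.05 log2 units within the 3 arrays, and the range between arrays was 0.17. Replicate 3 was lowest on both spots. The 75th percentile changed the picture of these small differences: the unscaled signal was highest on replicate 1, and the level was highest on replicate 2.

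Mycn, the N-Myc gene, which is typical of embryonic and neural progenitor cells, had a probe with signals of 10876, 9493 and 9994. Its levels were 4.30, 4.21 and 4.25 (4.25 ± 0.05). The SD lay between 0.0203 and 0.0742 over the 6 other scalings. The 3 arrays lay within 0.09 log2 units of each other.

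Max, the obligate partner of Myc and Mycn, gave signals of 9673, 10048 and 9023. Its levels of 4.14, 4.30 and 4.10 (4.18 ± 0.11) placed replicate 2 above both others. Replicate 2 was the highest array for Max in each of the 6 other scalings tried.

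**Figure D1:**
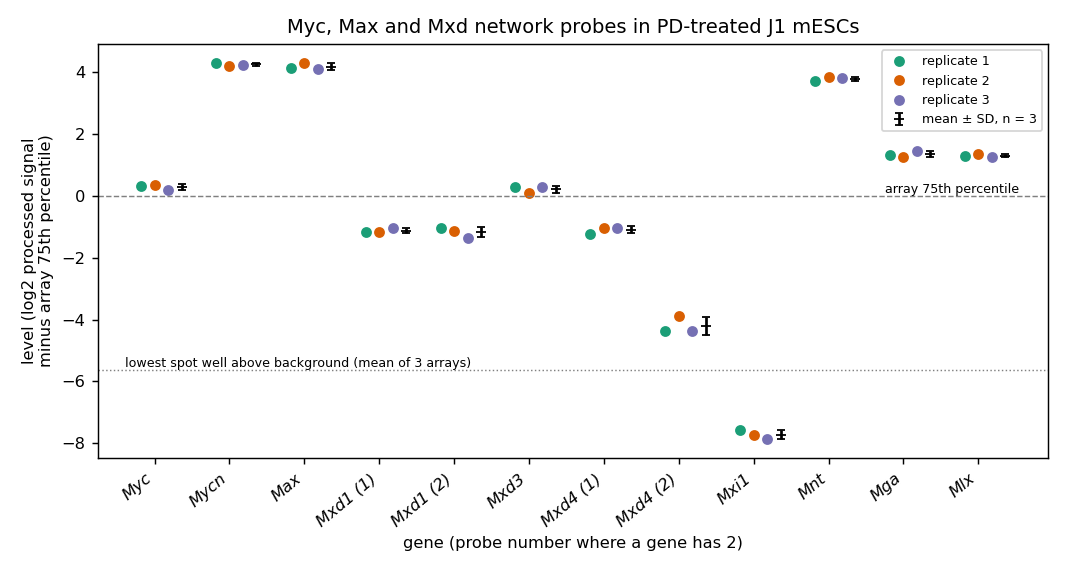
Level of each of the 12 probes (log2 processed signal minus the array 75th percentile, vertical axis) on the 3 arrays (points by replicate), with the mean ± SD in black. The replicates of each probe lie close together, 7 of 10 genes have a probe above the dashed line at 0, and Mxi1 alone lies below the dotted line of the lowest spot well above background.

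The Mxd group holds the repressors that replace Myc at Max. Of its 4 genes 3 were detected, which is near the share of all named genes (72.8%). Mxd1 was covered by 2 probes to the same transcript. The first, with the higher mean level, had signals of 242, 228 and 257 (level -1.13 ± 0.08) and the second 268, 233 and 205 (level -1.18 ± 0.17). Both thus gave nearly the same mean, but replicate 3 was the highest array for the first and the lowest for the second. The signal ratio of the first to the second was 0.905, 0.978 and 1.25 on replicates 1 to 3.

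Mxd3, which is linked to proliferating rather than differentiating cells, gave signals of 665, 539.9 and 645. Its levels of 0.27, 0.08 and 0.29 (0.21 ± 0.12) set replicate 2 apart as the low array, in contrast to Max. Its probe stood in an area of the array of replicate 2 with many non-uniform spots, as did the first Mxd1 probe and the dimmer Mxd4 probe. These areas are the 6 of 48 blocks (8 groups of rows by 6 of columns) with at least 10 such spots. Their part in the levels was not tested.

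Mxd4, a Mxd gene associated with differentiation, was also covered by 2 probes to 1 transcript, and these disagreed in signal. The brighter one had signals of 235, 252 and 255 (level -1.10 ± 0.11). The dimmer one reached only 26.5, 35.0 and 25.8 (level -4.20 ± 0.29), with replicate 2 as the high array. Its SD depended on the scaling and lay between 0.00477 and 0.284 over the 6 others. The brighter probe exceeded the dimmer one 8.89-fold, 7.20-fold and 9.89-fold on the 3 arrays (8.66 ± 1.36). Both were detected, so the detection of Mxd4 did not depend on the probe, whereas its level did.

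Mxi1, a further repressor of this group, was the only gene of the network that was not detected. Its signals were 2.86, 2.42 and 2.25, below the lowest spot well above background on every array. The 308 negative control spots had median signals of 2.42, 2.75 and 2.48, so on replicates 2 and 3 the probe lay below that median. On replicate 1 it lay above the 95th percentile of these spots, which was 2.74. That percentile was 12.7 on replicate 2 and 2.82 on replicate 3. The flag for a signal well above background was set on 1.62%, 5.19% and 1.3% of these spots. The weaker flag for a positive and significant signal was set on replicates 1 and 3 and not on replicate 2. The scanner software gave an error of 75.4%, 100.3% and 100.6% of the signal. The probe is assigned to 1 of 7 curated Mxi1 transcripts in RefSeq, and which of the others it would also report is not known here. The result is therefore a bound for this probe and not for all Mxi1 RNA.

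Mnt, the repressor that opposes Myc in dividing cells, gave signals of 7277, 7321 and 7352. The signals differed little between arrays, and after scaling the levels were 3.72, 3.84 and 3.80 (3.79 ± 0.06), with replicate 1 lowest.

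Mga, the large scaffold protein with a T-box besides its helix-loop-helix, gave signals of 1374, 1223 and 1442. Its levels were 1.32, 1.26 and 1.45 (1.34 ± 0.10), with replicate 3 highest. Mlx gave signals of 1345, 1311 and 1265 and levels of 1.29, 1.36 and 1.26 (1.30 ± 0.05). Replicate 2 was the highest array for Mlx after scaling, although the unscaled signal was highest on replicate 1.

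Detection of the network was then set beside that of all named genes. Of the 10 genes 9 were detected by their brightest probe, against 72.8% of the 20608 named genes with a level on each array. Of the 12 probes 11 were detected, against 72.4% of 27235 gene-matched probes. A mean level above the 75th percentile was found for 7 of the 10 genes (Myc, Mycn, Max, Mxd3, Mnt, Mga and Mlx), against 41.6% of the named genes. The 3 others were Mxd1, Mxd4 and Mxi1. No spot of the network was saturated or carried an outlier flag.

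The spread between replicates was examined for the 11 detected probes. Their SDs ranged from 0.05 (Mycn) to 0.29 (dimmer Mxd4 probe), with a median of 0.10 log2 units. The median over 19674 detected gene-matched probes with a level on each array was 0.08. The SD falls with the level, and with these probes in 4 equal parts by level the medians were 0.15, 0.08, 0.06 and 0.06 from the dimmest to the brightest. Only 3 of the 11 network probes, those of Mycn and Mlx and the first one of Mxd1, had an SD below the median of their own part. Without replicate 2 the median SD fell to 0.06 for the network and to 0.05 for the gene-matched probes. It was 0.12 against 0.07 without replicate 1, and 0.07 in both without replicate 3. With all 3 arrays, whether the network median was clearly the higher one depended on the processing. It was 0.0965 against 0.0762 with quantile normalization, 0.0655 against 0.0667 with normexp background correction, and 0.0638 against 0.0630 with both.

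**Figure D2:**
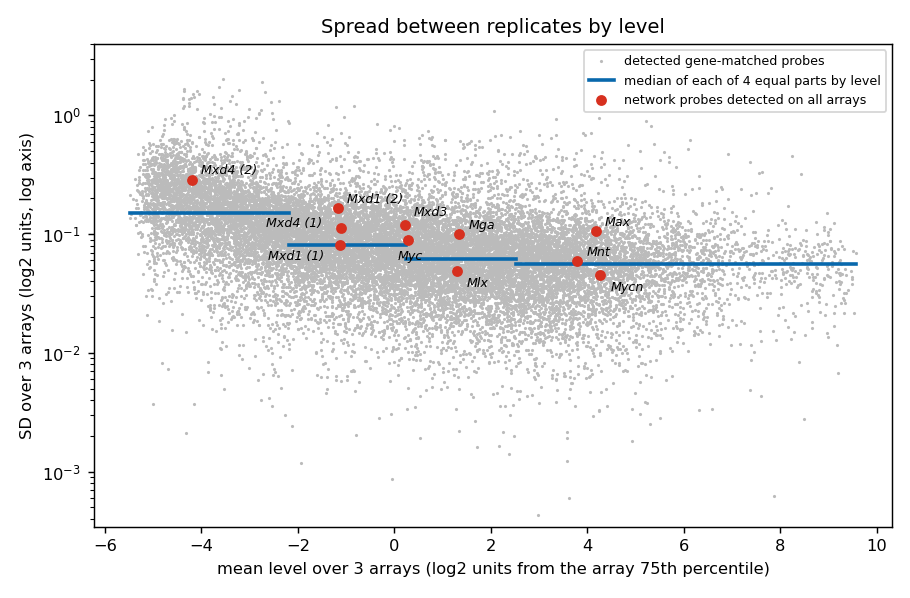
SD over the 3 arrays (vertical, log axis) against the mean level (horizontal, log2 units from the array 75th percentile) for all detected gene-matched probes (grey) and the 11 detected network probes (red), with the median SD of each of 4 equal parts by level as a blue line. The Mycn and Mlx probes lie below their line, the first Mxd1 probe just below, and the 8 others above.

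No pair of arrays was far apart in any detected network probe. Arrays more than 1 log2 unit apart occurred in 0 of the 11, against 1.13% of the gene-matched probes, and the ranges lay between 0.09 and 0.51. The scanner software assigns each signal an error, which was about 10% for 10 of the probes and 12.3% to 13.5% for the dimmer one of Mxd4. In units of these errors, combined over 2 arrays, the most distant pair differed by 0.438 (Mycn) to 1.97 (dimmer Mxd4 probe). A pair more than 2 combined errors apart occurred for 0 of the 11 probes, against 7.35% of the gene-matched probes. With shares this small, the counts of 0 do not set the network apart.

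The array that departed most from the middle of the 3 levels was replicate 2 in 4 of the 11 probes (Max, Mxd3, the dimmer Mxd4 probe and Mlx), against 42.7% of the gene-matched probes. Replicate 3 was farthest in 4 and replicate 1 in 3. The median absolute difference between replicates 2 and 3 was 0.17 log2 units in the network and 0.10 in the gene-matched probes. Between replicates 1 and 2 it was 0.10 in both, and between replicates 1 and 3 it was 0.08 against 0.07. The gap between replicates 2 and 3 narrowed to 0.12 against 0.11 when the arrays were centred on their medians. Replicate 2 was the highest array in 6 of the 11 probes (44.8% of the gene-matched probes), but in 3 of them (23.0%) with the array medians.

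**Figure D3:**
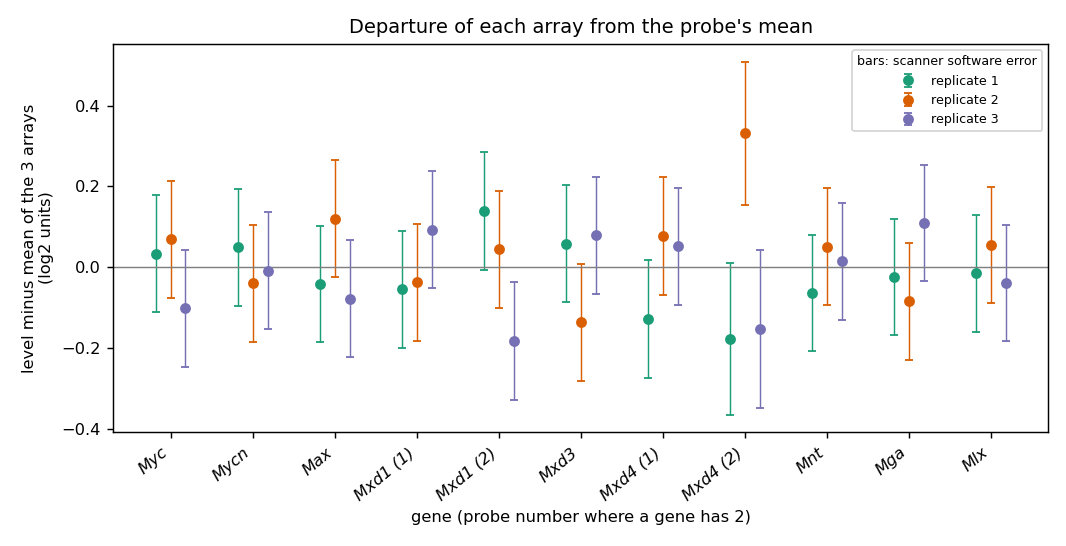
Level on each array minus the mean of the 3 arrays (vertical, log2 units) for the 11 detected network probes, with the error given by the scanner software as bars and replicates in 3 colours. The largest departure is that of replicate 2 for the dimmer Mxd4 probe, and no array is high or low throughout.

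The partners and targets of the network were described from lists, for which the brightest probes are named. Beyond the 10 genes, the remaining network genes Mycl, Mlxip and Mlxipl were all detected. Mycl, the L-Myc gene, had a level of -1.44 ± 0.14. The Mondo factors that pair with Mlx had levels of -0.73 ± 0.06 (Mlxip) and 2.64 ± 0.09 (Mlxipl).

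Of 12 coactivators and cofactors of Myc 11 were detected, against the 72.8% of all named genes that holds for each list, with a median level of 4.09. The brightest were those of the ATPases Ruvbl1 (6.22 ± 0.04) and Ruvbl2 (5.93 ± 0.06) and of the histone methylation adaptor Wdr5 (4.96 ± 0.06). Zbtb17, which encodes the Myc-binding factor Miz1, was detected on 0 arrays by its 1 probe, with a mean level of -7.38 ± 0.42. Its mean signal was 3.30, and the result is a bound for this probe and not for all Zbtb17 RNA.

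All 11 corepressor genes that serve Mxd and Mnt were detected, with a median level of 2.73. Hdac1, a histone deacetylase, had a level of 6.90 ± 0.04, the Sin3 scaffold Sin3b 5.83 ± 0.08 and the histone chaperone Rbbp4 5.72 ± 0.06. The 12 genes of the Polycomb complex PRC1.6, to which Mga and Max belong, were also all detected, with a median level of 2.95. Rybp, a subunit of such complexes, had a level of 5.19 ± 0.01, and Hdac1 and Wdr5 stand in this list too. Of the genes for Myc turnover 8 of 9 were on the array, all but Skp2 having a matched probe, and all 8 were detected. The mitotic kinase Aurka had a level of 5.10 ± 0.06 and the ubiquitin ligase Huwe1 of 4.61 ± 0.07.

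All 20 target genes were detected, and 17 of them lay above the 75th percentile, against 41.6% of the named genes. That percentile was also exceeded by 11 of 12 coactivators, 9 of 11 corepressors, 10 of 12 PRC1.6 genes and 7 of 8 turnover genes. Of the 3 remaining network genes, 1 exceeded it. A high share was thus not particular to the targets. The lists were chosen with earlier results of these data known, so such counts are a description and no test. The median level of the targets was 4.90. The brightest were those of the nucleolar chaperone Npm1 (8.60 ± 0.06), lactate dehydrogenase Ldha (8.36 ± 0.07) and the mitochondrial chaperone Hspd1 (7.28 ± 0.04). Median SDs of the lists ranged from 0.04 for the coactivators to 0.09 for the remaining network genes, and in 0 genes of the 6 lists were arrays over 1 log2 unit apart. These levels describe PD-treated cells alone, so whether a target followed Myc was not tested.

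**Figure D4:**
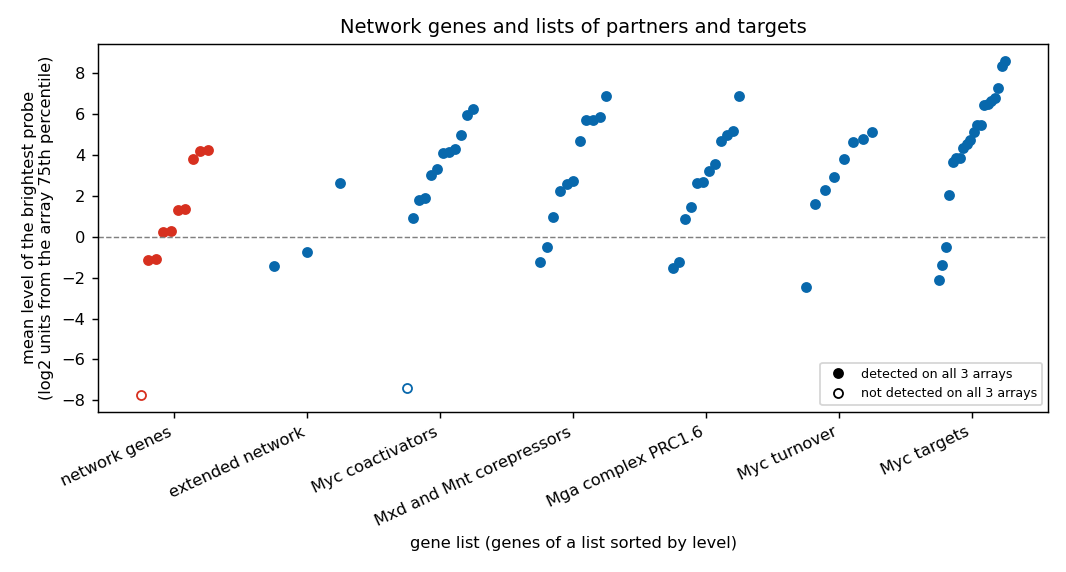
Mean level of the brightest probe of each gene (vertical, log2 units from the array 75th percentile) for the 10 network genes (red) and the 6 lists of partners and targets (blue), sorted within a list. Filled points were detected on all 3 arrays, and the open points are Mxi1 and Zbtb17.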

How the data were processed

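Per the file headers, the deposited values of each array are intensities per spot from Feature Extraction 10.7.3.1 (Agilent), background-subtracted and detrended within each array and not normalized between arrays, with a flag for signals well above background. The authors also deposited a log2 value per probe and sample with no stated normalization, used as an alternative. How the arrays were processed further is not given in the sources used here. The array grid refers to mm9, and no array coordinates are printed. RefSeq symbols and promoter sequences are from GRCm38.p6. Of 55681 non-control probes 27235 were matched to 1 symbol.

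Log2 processed signals were averaged over the unflagged spots of a probe, and the 75th percentile of the array over non-control probes was subtracted. Of several probes, the one with the highest mean level stands for a gene. SDs are over 3 arrays, whose number limits the precision. The calculations of spread and of the farthest array were checked on simulated levels with the same noise for every array and level. That check is of the calculation and does not test the spreads reported here. The planned test on probes with 10 spots was not run, since no network gene has such a probe. Normexp (offset 50, on median signals) and quantile normalization used limma 3.58.1 in R 4.3.3, and the rest Python 3.11.15. Named are all network probes and, of the lists, undetected genes and the 3 brightest, of which 1 is not reported here. The genes and lists were chosen with earlier results of these data known.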

Additional observations from a re-analysis of the deposited data

How the results depend on the processing

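The alternatives were other scalings (quantile, array median, percentile over detected probes, normexp with either scaling, the deposited table), outlier spots kept, no filter on dim probes, other detection rules and leaving out each replicate. The omission of the 3 probes in blocks with many non-uniform spots was chosen after seeing the data and gave a median SD of 0.0947. No paired analysis was possible because there was a single group of samples. The median SD of the detected network probes, 0.0996, was 0.0655 with normexp and the 75th percentile and 0.0638 with normexp and quantile normalization. The gene-matched probes had 0.0667 and 0.0630 in these, and 0.0771 in the main scaling. The higher median of the network was thus not seen, or hardly seen, with normexp. The network median ranged from 0.0555 (without replicate 2) to 0.120 (without replicate 1) when 1 replicate was left out. The counts of detected genes and probes and of replicate 2 as the farthest array stayed within 1.5 times in each alternative run, at 4 to 6 of 11 probes for the latter, and 0 probes had a range above 1 log2 unit. The cause of the lower SD with normexp was not tested. The array median shifted every level by about 3.74 and the percentile over detected probes by about -1.92, so levels belong to their reference. With normexp and the 75th percentile, some levels moved by more than their SD. Mycn went from 4.25 to 4.05, Mga from 1.34 to 1.10, Mxd1 from -1.13 to -0.90 and Mxi1 from -7.73 to -3.26. Those of Myc, Max, Mxd3, Mxd4, Mnt and Mlx stayed within their SD. The signals of Mxi1 lay near those of the negative controls, above their 95th percentile on replicate 1 and below their median on replicates 2 and 3. No order between arrays was therefore read from them.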

Other observations

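In the deposited table the log2 value of Myc was 9.22, 9.25 and 9.08 on replicates 1 to 3 (9.19 ± 0.09), that of Mycn 13.12 ± 0.05 and that of Max 13.04 ± 0.10. The dimmer probe of Mxd4 had 4.72 ± 0.24 against 7.80 ± 0.11 for the brighter one, and Mxi1 had 1.13 ± 0.25. Each column of that table had a median of 5.18 and a correlation across probes (which are no replicates) of 0.99987 to 0.99998 with the log2 processed signal of the same array. It is thus on a log2 scale, follows the direction of the signal and is not centred per probe, while the method that gave the columns a common median is not stated.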
